A study of Mus musculus with 57 samples.

Results

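The keratins of simple epithelia, Krt7, Krt8, Krt18 and Krt19, were followed from the mouse oocyte to the blastocyst in total RNA sequencing data. They are 4 of the 59119 rows of the deposited expression table and were chosen by name, through the Ensembl gene identifier of each row. All 4 were found. The unit is FPKM, a count of sequenced fragments divided by transcript length and by library size. Values are thus per length, and levels of different genes can be set side by side.

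The stage series began with MII oocytes and Zygote and followed embryos at E2-cell and L2-cell, taken here as early and late 2-cell, then through 4-cell and 8-cell to Morula and Blastocyst, all of them C57BL/6 and wild type. The time series held wild type BDF1 embryos at 14, 17 and 20 hours after fertilization (After-fertilize-14h, 17h and 20h). In the knockdown experiment, BDF1 embryos received an antisense oligonucleotide at 20 uM against the long noncoding RNA LncR-3363 and were collected as LncR-3363 KD-1cell (4 samples) or KD-2cell (1 sample), against 4 wild type BDF1 samples named LncR-3363 Ctrl. In the knockout experiment, Cas9 mRNA at 100 ng/uL and a guide RNA at 150 ng/uL were directed at MT2Mm, a long terminal repeat of an endogenous retrovirus, and embryos were read as Late1c_MT2Mm_ko and Early2c_MT2Mm_ko, against Late1c_MT2Mm_ctrl and Early2c_MT2Mm_ctrl (3 samples each, BDF1, with an age of 6 to 8 weeks in the labels). These doses, and an injection of 5 to 10 pL into each MII oocyte, come from the protocol given with the other samples of the series; the MT2Mm samples carry none of their own. What the controls of either experiment received is not stated in the labels. Samples pooled embryos, about 150 to 200 for 1 of the 2 kits used.

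The 57 samples are represented by 43 columns in 18 groups, with 2 columns for each stage and time. The columns from the 4-cell stage on and those of the time series stand for merged or concatenated samples, and n below counts columns. In the table the knockdown columns are named by an abbreviation that the labels do not explain, and they were assigned to LncR-3363 because the numbers of knockdown and control columns match. No row carries the name LncR-3363, and MT2Mm is a repeat, so the level of neither target is given here. Column sums ran from 311543 to 720832 FPKM, small and ribosomal RNA made up 18% to 73.4% of them, and none of 12 housekeeping genes was listed at 0 in any column. The read depth is unknown, since the values are FPKM. Nothing says that replicates came from separate collections, so p-values measure the spread between these columns, which may be technical.

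Keratins form the intermediate filaments of epithelial cells and are obligate heteropolymers: a type II keratin (Krt7, Krt8) assembles only with a type I keratin (Krt18, Krt19). Krt8 and Krt18 are the pair of simple, single-layered epithelia and are known as the first keratins of the mouse embryo, where they fill the trophectoderm, the outer epithelium that later forms placenta. Krt7 and Krt19 are further keratins of simple and ductal epithelia and of trophoblast. Filaments are tied to desmosomes, where desmoplakin links them to desmosomal cadherins, and to hemidesmosomes through plectin.

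In GRCm38, Krt8 lies at chr15:101996698-102004482 on the minus strand and Krt18 at chr15:102028180-102032027 on the plus strand, 23697 bp apart and with 0 protein-coding genes between them. This is the known exception in which a type I keratin sits in the type II cluster. Krt7 lies in the same cluster at chr15:101411043-101430313 on the plus strand, 566 kb from Krt8, and Krt19 in the type I cluster at chr11:100140810-100148665 on the minus strand. The promoters of Krt8, Krt18 and Krt7 are shown because Krt8 and Krt18 moved together from the 4-cell stage on while Krt7 passed 1 FPKM in the blastocyst alone. The sequences are from RefSeq (GRCm38.p6), 250 bases before to 50 bases after the annotated start, at chr15:102004293-102004592 on the minus strand for Krt8, chr15:102027966-102028265 on the plus strand for Krt18 and chr15:101412153-101412452 on the plus strand for Krt7. Capitals mark matches to the motifs named below.
Krt8: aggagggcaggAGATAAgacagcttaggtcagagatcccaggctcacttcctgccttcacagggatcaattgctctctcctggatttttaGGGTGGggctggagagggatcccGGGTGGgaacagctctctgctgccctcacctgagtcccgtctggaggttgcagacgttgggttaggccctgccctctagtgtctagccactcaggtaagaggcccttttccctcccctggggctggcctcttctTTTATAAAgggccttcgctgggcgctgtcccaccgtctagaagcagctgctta
Krt18: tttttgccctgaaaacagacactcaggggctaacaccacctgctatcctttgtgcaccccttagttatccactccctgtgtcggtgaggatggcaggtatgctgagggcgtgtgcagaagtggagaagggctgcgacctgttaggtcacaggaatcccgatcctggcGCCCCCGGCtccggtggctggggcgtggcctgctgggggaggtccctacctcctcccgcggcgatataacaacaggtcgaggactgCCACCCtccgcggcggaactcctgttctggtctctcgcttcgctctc
Krt7: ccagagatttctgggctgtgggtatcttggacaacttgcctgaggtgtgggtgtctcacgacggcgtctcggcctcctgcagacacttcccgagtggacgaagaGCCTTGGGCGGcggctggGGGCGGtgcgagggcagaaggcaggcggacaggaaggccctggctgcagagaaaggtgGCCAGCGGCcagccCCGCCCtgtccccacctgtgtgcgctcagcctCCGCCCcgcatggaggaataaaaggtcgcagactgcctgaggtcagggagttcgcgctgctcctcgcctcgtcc
The motifs were searched on both strands. The TATA box TATAAA, held by 13.6% of the 32851 promoters of the table, was found in Krt8, where a match on each strand overlaps the other at the annotated start. The GATA site AGATAA (11.2% of promoters) was found in Krt8. The KLF core CCACCC (31.5% of promoters) was found in Krt8 and in Krt18. The AP-2 site GCCNNNGGC (16.6% of promoters) was found in Krt18 and in Krt7, and the GC box GGGCGG (35.7% of promoters) in Krt7, where 1 of its matches overlaps an AP-2 match. The CCAAT box CCAAT (37.4%), the AP-1 site TGANTCA (7.81%), the TEAD core GGAATG (14.7%), the ETS core CCGGAA (14.9%) and the CDX core TTTATNG (10.9%) were in none of the 3 windows. These are matches of letters only. GC content was 58% in Krt8, 61.3% in Krt18 and 66.3% in Krt7, against a median of 52.7% over all promoters.

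Krt8 and Krt18 went through 3 phases in the stage series. Their level was low and unequal through the early 2-cell stage and lowest, as listed, at the late 2-cell stage. A joint increase at every later step ended among the most abundant protein-coding transcripts of the blastocyst. At the late 2-cell stage the row of a Krt8 pseudogene, given below, lay above that of Krt8. Krt7 reached 1 FPKM in the blastocyst alone, and Krt19 reached it in no column. Differences were tested with limma on log2(FPKM + 0.5) over all rows that reached 1 FPKM in enough columns, with Benjamini-Hochberg adjustment and a threshold of 0.05. On this scale the changes of low genes are understated. Krt8 and Krt18 passed the filter in the stage series, Krt7 passed only through its blastocyst columns, and Krt19 did not pass it in any fit.

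**Figure D1:**
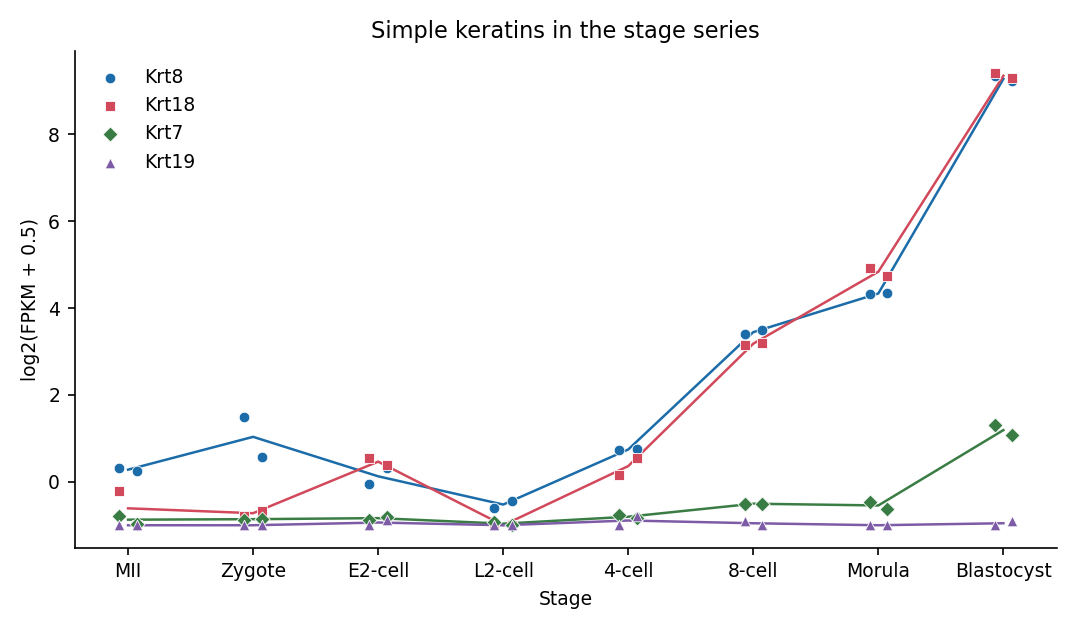
Level of each simple keratin, as log2(FPKM + 0.5), in the 2 columns of each of the 8 stage groups; points are columns and lines join the group means. Krt8 and Krt18 lie together from the 8-cell stage to the blastocyst, where their columns hold 596 to 677 FPKM, while Krt7 leaves the floor only in the blastocyst and Krt19 stays there.

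In MII oocytes Krt8 had 0.740 and 0.688 FPKM, in zygotes 2.33 and 0.984, in early 2-cell embryos 0.462 and 0.739, and in late 2-cell embryos 0.160 and 0.233. The zygote columns were above all the others, and the late 2-cell columns were below them. Krt8 was 0.76 higher in zygotes than in oocytes on the log2 scale, which did not pass the test (adjusted p = 0.11). It fell by 0.91 ± 0.24 (SE, adjusted p = 0.0093) in early 2-cell embryos against zygotes and by 0.65 ± 0.24 (adjusted p = 0.030) in late against early 2-cell embryos. The call at the early 2-cell step was lost without 1 E2-cell column (replicate 1: -0.73, adjusted p = 0.077), and the size there fell to -0.44 without Zygote replicate 1. The call at the late 2-cell step was lost without E2-cell replicate 2 (-0.47), L2-cell replicate 1 (-0.58) or L2-cell replicate 2 (-0.73).

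Krt18 did the opposite of Krt8 at the early 2-cell step. It had 0.963 and 0.801 FPKM in early 2-cell embryos, against 0.0828 and 0.130 in zygotes. The groups did not overlap, and Krt18 rose by 1.19 ± 0.22 (adjusted p = 0.0011). It was listed at 0 in both late 2-cell columns, and the fitted change there, -1.46 (adjusted p = 0.00011), depends on the added 0.5. In oocytes it was 0.358 and a listed 0, so that zygotes and oocytes overlapped. Of the 3 keratins tested, limma called 0 at the zygote step, where it called 3.76% of 19692 rows, 1.73% higher and 2.03% lower, and Krt8 alone was under an unadjusted p of 0.05. At the early 2-cell step 1 was called higher and 1 lower, where 44.1% of rows were called, 17.9% higher and 26.2% lower. At the late 2-cell step 2 were called lower, where 68.7% of rows were called, 31.1% higher and 37.6% lower. Of the rows called at the early 2-cell step, 40.5% were higher as deposited and 51.6% after columns were scaled to an equal protein-coding sum.

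From the late 2-cell stage on, the pair climbed together. Krt8 had 1.17 and 1.18 FPKM in 4-cell embryos and Krt18 had 0.623 and 0.971, which put both above their late 2-cell columns. At the 8-cell stage Krt8 had 10.1 and 10.7 FPKM and Krt18 had 8.44 and 8.70. In morulae Krt8 had 19.5 and 19.9 FPKM and Krt18 had 30.0 and 26.3. At each of these steps the columns of the later stage lay above those of the stage before, for both genes. Krt8 rose by 1.27 ± 0.24, 2.70 ± 0.24 and 0.89 ± 0.24 at the 4-cell, 8-cell and morula steps (adjusted p = 0.00088, 2.6e-05 and 0.021), and Krt18 by 1.36 ± 0.22, 2.82 ± 0.22 and 1.66 ± 0.22 (adjusted p = 0.0003, 1.4e-05 and 0.00038). Of the 3 keratins tested 2 were called higher at each step. At the 4-cell step 56.3% of rows were called (30.2% higher, 26.2% lower), and the share of calls that were higher was 53.6% as deposited and 34.1% with an equal protein-coding sum. At the 8-cell step the calls made up 35% of rows (13.4% higher, 21.6% lower), and at the morula step 20.9%, 8.39% higher and 12.5% lower. The call of Krt8 at the morula step was lost when any of the 4 columns was left out, with changes of 0.85 to 0.93. The call of Krt18 at this step was not lost.

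The step to the blastocyst was the steepest. Krt8 had 644 and 596 FPKM in blastocysts, against 19.5 and 19.9 in morulae. Krt18 had 677 and 626 FPKM in blastocysts, against 30.0 and 26.3 in morulae. The lowest blastocyst column was many times the highest morula column for both genes. The mean of Krt8 was 31.5 times that in morulae (4.94 ± 0.24, adjusted p = 4.3e-08) and the mean of Krt18 was 23.1 times (4.51 ± 0.22, adjusted p = 4.5e-08). Among 21918 protein-coding rows ranked by mean level, Krt18 stood at place 33 in the blastocyst and Krt8 at place 36, against 1555 and 2147 in the morula and 4039 and 3553 at the 8-cell stage. Blastocysts hold an inner cell mass beside the trophectoderm, and in such bulk samples more cells of a type and more RNA per cell cannot be told apart.

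Krt7 had 1.97 and 1.61 FPKM in blastocysts, against 0.220 and 0.153 in morulae. Its columns did not overlap, and it rose by 1.73 ± 0.12 (adjusted p = 5.2e-07), with a mean 9.6 times that in morulae. It had passed the filter through these blastocyst columns, so a difference was built into its selection and its count is no support. All 3 keratins tested were called higher at this step, where 38.7% of rows were called, 22.4% higher and 16.3% lower; 57.8% of the calls were higher as deposited and 46.7% after scaling by the median of ratios. Outside the blastocyst Krt7 never exceeded 0.22 FPKM and was listed at 0 in 9 of 43 columns. At the 8-cell stage it had 0.207 and 0.203 FPKM, against 0.0855 and 0.0607 at the 4-cell stage, with no call (0.30, adjusted p = 0.07). In the blastocyst it ranked at place 8613. Krt19 was listed at 0 in 34 of 43 columns, and its highest value was 0.13 FPKM, in 1 of the 2 columns at 20 hours. In blastocysts it was listed at 0 in 1 column and at 0.0329 FPKM in the other. At an unknown depth, a listed 0 does not show that Krt19 was absent.

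The balance of the 2 keratin types changed with stage. As a share of the summed level of the 4 genes, the type II keratins Krt7 and Krt8 made up 94.1% in zygotes, 42.2% in early 2-cell and 59.9% in 4-cell embryos, 55.3% at the 8-cell stage, 41.4% in morulae and 48.8% in blastocysts, where both columns gave 48.8%. The ratio of type II to type I was 16 in zygotes, 0.731 in early 2-cell embryos, 1.24 at the 8-cell stage, 0.706 in morulae and 0.954 in blastocysts. The zygote columns gave 28.7 and 7.98, with type I at only 0.0828 and 0.13 FPKM, and the early 2-cell columns 0.529 and 0.96. Type II thus far exceeded type I in the zygote, and the types were near parity from the 8-cell stage on. In the late 2-cell columns type I was listed at 0. These ratios compare FPKM of different genes and are a description without a test. Krt8 was 48.7% and Krt18 51.2% of the sum in blastocysts, and Krt7 was 0.14%.

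The processed pseudogene Krt8-ps is 98.6% identical to the Krt8 transcript over 941 bases, and it was listed at 27.3 and 23.2 FPKM in blastocysts, against 0.835 and 0.802 in morulae. In late 2-cell embryos Krt8-ps was listed at 0.318 and 0.84 FPKM, above the 0.160 and 0.233 of Krt8. Krt8-ps was at most 0.201 FPKM in early 2-cell and 0.0854 in 4-cell embryos. Reads of the pair could have been split between these rows, so the exact level of Krt8 is uncertain. This includes its minimum at the late 2-cell stage and the size of its 4-cell rise. How reads were split was not tested. Krt8 also shares 271 bp with the noncoding gene Gm36026 on the other strand, which was at 0.687 and 0.646 FPKM in blastocysts and at most 0.13 in all other columns. For Krt18, the pseudogenes Gm5200 (90.5% identical over 1267 bases) and Gm17847 (86.5% over 1065 bases) were listed at 0 in blastocysts. Their highest values were in early embryos. Gm5200 reached 0.658 FPKM in Early2c knockout embryos, where Krt18 had 1.04 to 1.62. Gm17847 reached 1.25 FPKM in KD-1cell embryos, where Krt18 had 0.255 to 0.721. The low levels of Krt18 there are thus uncertain as well. Krt7 overlaps 1269 bp of the antisense gene Gm671. No label or header says whether counting used strand.

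Between the oocyte and the blastocyst the sum of the other keratins changed the opposite way. The table holds 50 further rows named Krt and a number, of which 9 reached 1 FPKM in at least 2 of the 43 columns, 41 stayed below 1 FPKM in every column and 3 of these were listed at 0 throughout. In oocytes the 4 simple keratins summed to 1.18 and 0.699 FPKM, against 53.2 and 65.6 FPKM for the 50. In blastocysts they summed to 1323.8 and 1223.0 FPKM, against 1.99 and 2.04 FPKM for the 50. At the 4-cell stage the simple keratins held 1.88 and 2.3 FPKM and the others 8.29 and 9.56, and at the 8-cell stage the simple keratins held 18.8 and 19.6 FPKM and the others 3.9 and 4.28. The change of the others was steepest at the late 2-cell step, where 8 of the 9 tested were called lower and 1 higher. Their median was -1.59, against -0.10 over all rows, of which 37.6% were called lower and 31.1% higher. Krt8 and Krt18 were called lower at the late 2-cell step as well (-0.65 and -1.46). At the other 6 steps none of the 9 was called higher and 1 to 3 were called lower. Of all rows, 1.73% to 30.2% were called higher and 2.03% to 26.2% lower at these steps, so such small counts say little by themselves.

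**Figure D2:**
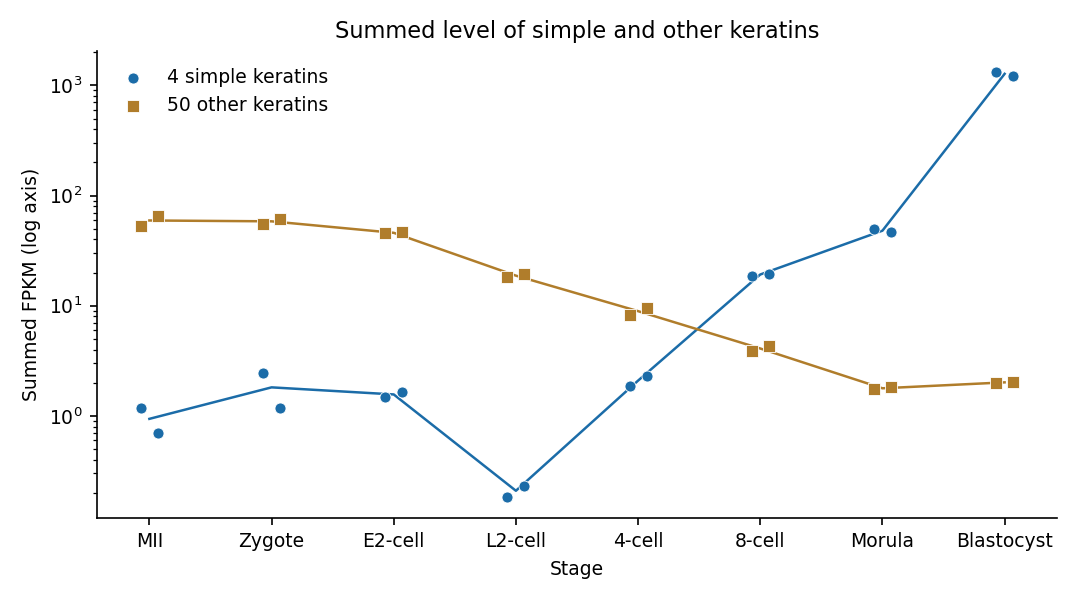
Summed FPKM, on a log axis, of the 4 simple keratins and of the 50 other keratins in the 2 columns of each stage; points are columns and lines join the means. The other keratins lie at 45.4 to 65.6 FPKM up to the early 2-cell stage and near 2 FPKM in the blastocyst, where the simple keratins sum to 1223.0 and 1323.8 FPKM.

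Krt73, a type II keratin of the hair follicle sheath, had 0.668 and 0.744 FPKM in late 2-cell embryos, against 5.57 and 6.75 in early 2-cell embryos (-2.46 ± 0.17, adjusted p = 1.9e-07). Krt12, the type I keratin of corneal epithelium, had 0.431 and 0.924 FPKM, against 7.32 and 6.05 (-2.64 ± 0.23, adjusted p = 1.8e-06). Krt25, a type I keratin of the hair follicle sheath, was listed at 0 in late 2-cell embryos, against 0.910 and 1.11 FPKM in early 2-cell embryos (adjusted p = 6.4e-06). The exception was Krt28, another type I keratin of that sheath, with 1.51 and 1.86 FPKM in late 2-cell embryos, against 0.124 and a listed 0 in early 2-cell embryos (1.96 ± 0.17, adjusted p = 1.5e-06). Krt84, a type II keratin known from hard, keratinized epithelia, was the most abundant of them at the late 2-cell stage, with 13.3 and 14.7 FPKM, against 19.4 and 18.7 in early 2-cell embryos (-0.43 ± 0.15, adjusted p = 0.024); it was named after its values were seen. In blastocysts Krt84, Krt12, Krt73 and Krt25 were listed at 0 in both columns. Krt84 and Krt28 were the 2 of the 9 above 1 FPKM in both late 2-cell columns.

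Genes that anchor keratin filaments were followed as a list of 20 desmosome, hemidesmosome and plakin genes. Of the 14 tested, 11 rose and 1 fell in blastocysts against morulae (median change 1.18, against 0.00 over all rows). Of these, Dsg2, Ppl and Pkp3 passed the filter only through their blastocyst columns; of the other 11, 8 rose and 1 fell (median 1.1), where 22.4% of all rows were called higher and 16.3% lower. At the 8-cell step, where Krt8 and Krt18 had already risen, 2 rose and 3 fell (median -0.12, against -0.10 over all rows). Of all rows 13.4% were called higher and 21.6% lower there, so these counts are near the shares of all rows. At the morula step 4 rose and 1 fell (0.12, against -0.02), where 8.39% of all rows were called higher and 12.5% lower. Desmoplakin (Dsp), which ties keratin filaments to the desmosome, averaged 55.3 ± 0.019 FPKM in blastocysts and 2.25 ± 0.31 in morulae (SD, n = 2 each; 4.35, adjusted p = 8.2e-09). The desmosomal cadherin Dsg2 averaged 14.2 ± 0.26 FPKM in blastocysts and 0.211 ± 0.062 in morulae (4.37, adjusted p = 6.9e-10). Its partner cadherin Dsc2 averaged 7.51 ± 0.74 FPKM in blastocysts and 0.0331 ± 0.047 in morulae (3.91, adjusted p = 3.8e-08). The plakins Plec (10.6 against 4.12 FPKM, 1.27) and Ppl (1.5 against 0.221 FPKM, 1.48) rose less. Itgb4, the integrin subunit of the hemidesmosome, was the 1 that fell (0.222 against 2.12 FPKM, -1.86 ± 0.25, adjusted p = 0.0001), and it was named after its value was seen.

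**Figure D3:**
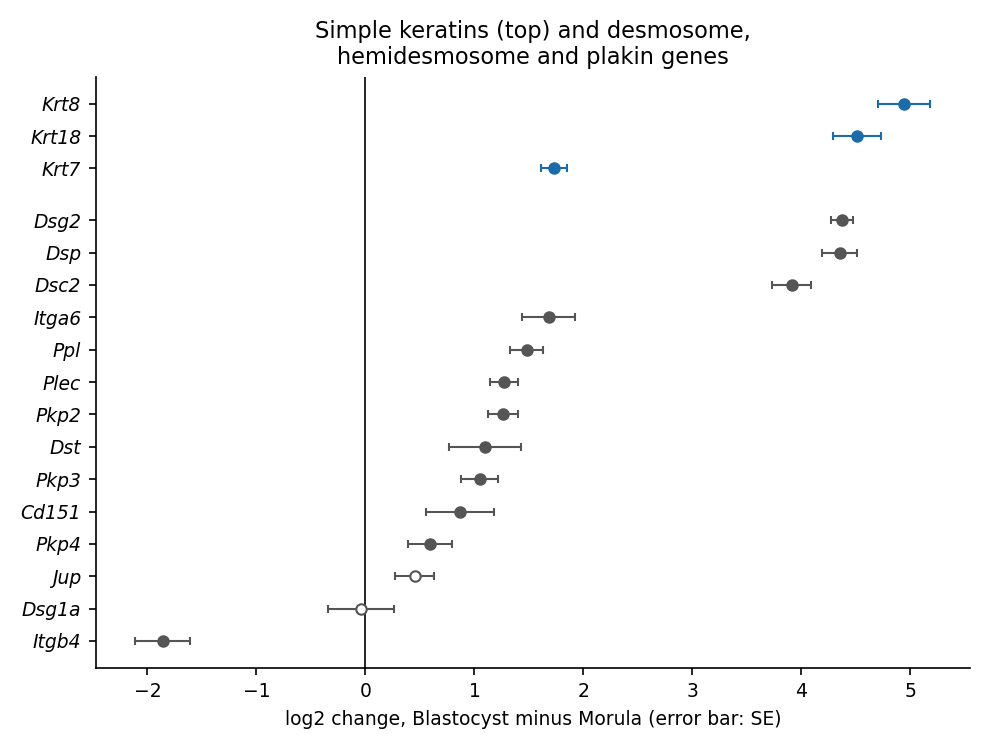
Change in log2(FPKM + 0.5) of blastocysts over morulae for the simple keratins tested (blue) and the 14 tested desmosome, hemidesmosome and plakin genes (grey); error bars are SE and open circles are genes without a call. Dsg2, Dsp and Dsc2 stand near Krt8 and Krt18, at 3.91 to 4.37, and Itgb4 lies below 0.

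The counts of further lists at the blastocyst step stand beside the same 22.4% of rows higher and 16.3% lower. Of 9 tested intermediate filament genes outside the keratins, 3 rose and 3 fell (median 0.16). Lmna, a lamin of the nuclear envelope, averaged 24.2 FPKM in blastocysts and 6.8 in morulae (1.76, adjusted p = 6.2e-06), and Sync, encoding syncoilin of muscle filaments, 3.65 and 13.2 FPKM (-1.72, adjusted p = 2e-06). Of 14 tested trophectoderm transcription factors 7 rose and 4 fell (median 0.48). Cdx2, a factor that defines trophectoderm, averaged 132 FPKM in blastocysts and 24.8 in morulae (2.39, adjusted p = 2.3e-06), and Eomes 18.2 and 3.8 FPKM (2.12, adjusted p = 4.5e-07). Tfap2a, encoding an AP-2 factor, passed the filter only through the blastocyst, where it averaged 1.77 FPKM, and was listed at 0 in both morula columns, while Hand1, a later trophoblast factor, was 0.721 FPKM in blastocysts and 16.7 in morulae (-3.81, adjusted p = 4.4e-09). Elf3, an epithelial ETS factor, was 131 against 30.4 FPKM (2.09, adjusted p = 1.8e-06). Of 17 tested genes for keratin regulators and binding proteins 5 rose and 7 fell (median -0.39), among them the chaperone genes Hspb1 (17.2 against 4.53 FPKM, 1.81) and Dnajb6 (62.7 against 119 FPKM, -0.92), and Sfn, the 14-3-3 protein of epithelia (224 against 484 FPKM, -1.11). Of the 15 tested trophectoderm markers, a list that holds Krt8 and Krt18, 13 rose and 1 fell, and of 10 inner cell mass markers 5 rose and 4 fell.

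The rows most like each keratin across the 16 columns of the stage series were taken by Pearson r of log2(FPKM + 0.5) among 11303 rows that reached 5 FPKM in a column. For Krt8 these were Gm14409 (r = 0.991), Pycard (0.988), encoding an inflammasome adaptor, Camk1 (0.987), a calcium-dependent kinase, Tmem125 (0.986) and Nek6 (0.986), a mitotic kinase. For Krt18 they were Dok1 (0.992), encoding a docking protein, Fam129a (0.992), Sh3bp1 (0.990), a GTPase activator, Frrs1l (0.989) and Slc38a4 (0.989), an amino acid transporter. Krt8 and Krt18 were not each other's nearest row: with r = 0.980, Krt18 was in place 16 for Krt8 and Krt8 in place 36 for Krt18. The blastocyst means of the nearest rows were far lower than those of the keratins, from 5.58 FPKM for Camk1 to 43.4 FPKM for Slc38a4. The columns share stages and libraries, so these r are a description.

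The time series asked how transcripts change between 14 and 20 hours after fertilization. Krt8 had 0.373 and 0.594 FPKM at 14 hours, 0.438 and 0.403 at 17 hours, and 3.54 and 4.54 at 20 hours. Krt18 had a listed 0 and 0.0237 FPKM at 14 hours, 0.117 and a listed 0 at 17 hours, and 2.67 and 3.83 at 20 hours. For both, the columns at 14 and 17 hours overlapped and both columns at 20 hours lay far above them. Krt8 rose by 2.29 ± 0.17 (adjusted p = 0.0015) and Krt18 by 2.74 ± 0.21 (adjusted p = 0.0016) at 20 against 17 hours, and by 2.21 and 2.86 at 20 against 14 hours (adjusted p = 0.00037 and 0.00033). Both passed the filter only through their columns at 20 hours, so a difference was built into their selection and a count of them is no support. Without the filter, over all rows above 0, the adjusted p was 0.014 for each at 20 against 17 hours, and 0.0048 for Krt8 and 0.0044 for Krt18 at 20 against 14 hours. At 20 against 17 hours the calls made up 19.6% of 12834 rows (5.13% higher, 14.5% lower), and at 20 against 14 hours 39.2%, 16.2% higher and 22.9% lower. At 17 against 14 hours limma called 0 of the 2, and 0 were under an unadjusted p of 0.05, where 37% of rows were called, 20.5% higher and 16.5% lower; of these calls 55.3% were higher as deposited and 40.9% after scaling by the median of ratios. Of the rows called, 26.1% were higher at 20 against 17 hours as deposited and 37.5% after scaling by the median of ratios. Type II made up 97.7%, 88.6% and 55.1% of the keratin sum at the 3 times. Krt7 stayed at 0.0489 FPKM or lower, and Krt19 was at 0.130 FPKM and a listed 0 at 20 hours.

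At 20 hours Krt8 averaged 4.04 ± 0.71 FPKM and Krt18 3.25 ± 0.82 (SD, n = 2), against 0.601 ± 0.20 and 0.882 ± 0.11 in early 2-cell embryos of the stage series and 1.66 ± 0.95 and 0.107 ± 0.034 in zygotes; strain differs between the series and no test was made. Among BDF1 embryos, Late1c controls of the knockout experiment reached 4.03 and 4.33 FPKM of Krt8 and 1 KD-1cell column 5.22, so the level of Krt8 at 20 hours lay inside the range of the series, while Krt18 was at most 1.62 FPKM in the BDF1 columns of the other experiments. Among the 641 named rows called higher at 20 hours with at least 1 FPKM in both columns, Krt18 had place 7 and Krt8 place 16 by size of change. The largest changes were those of Mir3069, Snora74a, Timp1, a protease inhibitor, Gm28037, Spp1, a secreted phosphoprotein, Akr1c18, a progesterone-converting enzyme, and, after Krt18, Malat1.

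Some markers of cumulus and granulosa cells, which surround the oocyte, were also higher at 20 hours than in every earlier column. Of the 20 markers of that list, 12 had both columns at 20 hours above all 4 earlier columns and 2 had both below. This is 60% above, while of all 34194 rows above 0 in the time series 14.5% lay above. The 12 include Foxl2, at 0.0443 and 0.0165 FPKM at 20 hours. They also include Ptgs2, Nr5a1 and Vcan, each under 0.3 FPKM in both columns at 20 hours. The share above was 45% of 20 keratin regulators and binding proteins, 42.9% of 14 trophectoderm markers other than the keratins, 41.7% of 12 primitive endoderm markers and 33.3% of 12 housekeeping genes. It was 33.3% for fibroblast and stromal markers and 31.2% for trophectoderm transcription factors. Oviduct markers and other intermediate filament genes had 25% each, and desmosome list genes and inner cell mass markers 20% each. Other keratins had 14%, blood and immune markers 7.69% and sperm and testis markers 0%. The cumulus and granulosa list summed to 30.3 and 35.0 FPKM at 20 hours, 26.7 and 25.6 at 17 hours and 26.9 and 26.3 at 14 hours, and most of it was Serpine2 and Cyp19a1, which fell (-0.30 and -0.28, adjusted p = 0.012 and 0.033). Among the 4 markers that passed the filter, Timp1 had 3.80 and 7.28 FPKM at 20 hours and was listed at 0 in all earlier columns, and Vim, encoding vimentin, had 1.15 and 1.41 FPKM, against 0.0438 and 0.0977 at 17 hours (1.64, adjusted p = 0.0032); both passed the filter only through the columns at 20 hours, so their calls are no support. Below the filter, Inha, encoding inhibin alpha, had 0.995 and 1.48 FPKM at 20 hours, against 0.0467 and a listed 0 at 17 hours, and the steroid enzyme gene Hsd3b1 had 0.875 and 0.963 FPKM and was listed at 0 in both columns at 17 hours. These genes and Tnfaip6, Inhba, Amhr2 and Star, 8 in all, were under 0.3 FPKM in all 4 earlier columns and averaged 0.3 FPKM or more at 20 hours; these genes and that limit were chosen after the values were seen. Foxl2, Amh and Lhcgr, markers that define granulosa cells, were at 0.0443 FPKM or lower at 20 hours, and Amh and Lhcgr were listed at 0. The second column at 20 hours was the higher for Krt8 and Krt18 and for Timp1, Inha, Vim, Hsd3b1 and Star, and the first for Tnfaip6, Amhr2 and Inhba. The part of such cells in the keratin values was not tested.

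**Figure D4:**
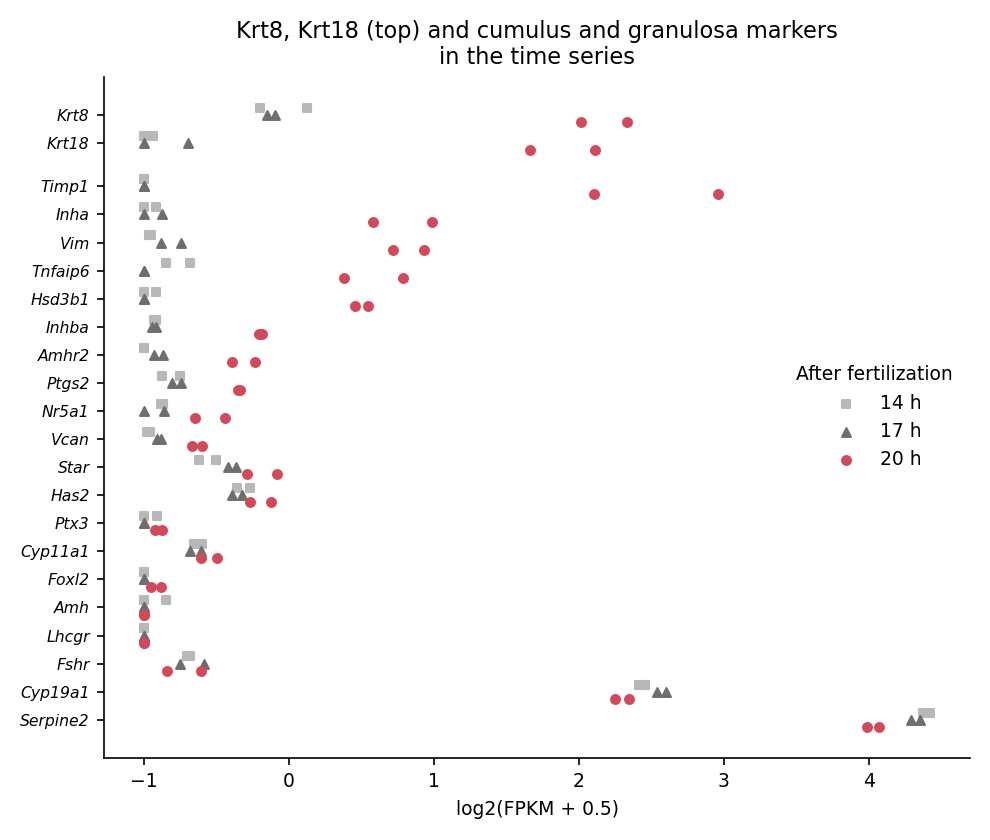
Level, as log2(FPKM + 0.5), of Krt8, Krt18 and the 20 cumulus and granulosa markers in the 2 columns at each of 14, 17 and 20 hours after fertilization. Timp1, Inha, Vim, Tnfaip6 and Hsd3b1 leave the floor at 20 hours as Krt8 and Krt18 do, Foxl2, Amh and Lhcgr do not, and Cyp19a1 and Serpine2 are lower at 20 hours.

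The counts of other lists at 20 against 17 hours stand beside 5.13% of all rows called higher and 14.5% lower. Of 7 tested primitive endoderm markers 4 rose, among them the basement membrane genes Col4a1 (4.73 against 1.84 FPKM, 1.15, adjusted p = 0.0027) and Lama1 (2.67 against 0.964 FPKM, 1.11, adjusted p = 0.0018), while the summed list was at 86.6 and 89.9 FPKM at 20 hours, 86.9 and 81.4 at 17 hours and 106 and 116 at 14 hours. Of 9 tested trophectoderm markers 3 rose, Krt8, Krt18 and Id2, and each of these passed the filter only through its columns at 20 hours. The trophectoderm markers other than the keratins summed to 28.1 and 26.9 FPKM at 20 hours, 25.6 and 25.8 at 17 hours and 28.9 and 29.2 at 14 hours. The 12 oviduct epithelium markers summed to 1.01 and 1.41 FPKM at 20 hours, against 1.16 and 1.02 at 17 hours, and 0 of them passed the filter. The fibroblast and stromal markers summed to 2.62 and 2.99 FPKM at 20 hours, against 1.49 and 1.57 at 17 hours, and Sparc, with 1.12 and 1.28 FPKM at 20 hours against 0.151 and 0.144 at 17 hours, was called higher but passed the filter only through the columns at 20 hours. Of 9 tested desmosome, hemidesmosome and plakin genes 1 rose and 2 fell, and of 8 tested other keratins 1 rose, Krt73 (6.25 against 4.39 FPKM, 0.46, adjusted p = 0.0075). Of 6 tested intermediate filament genes outside the keratins 2 rose, Vim, with the limit above, and Ina, the gene of alpha-internexin (10.5 against 8.13 FPKM, 0.35, adjusted p = 0.0077).

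The knockdown experiment set LncR-3363 KD-1cell embryos against controls. The names of the controls give no cell stage, so an effect of the knockdown and a difference in stage cannot be told apart. Krt8 had 2.23, 2.56, 2.32 and 5.22 FPKM in KD-1cell embryos, against 2.29, 2.44, 1.15 and 1.27 in controls, and 1.94 in the single KD-2cell sample. The groups overlapped, and 1 knockdown column lay far above the rest. Krt8 was 0.62 higher in KD-1cell embryos (95% interval -0.01 to 1.25), without a call by limma (adjusted p = 0.10), and 0.37 without that column (replicate 4). It was the 1 keratin that passed the filter, so 0 of 1 was called, and 0 were under an unadjusted p of 0.05, where 43.7% of 11492 rows were called, 29.8% higher and 13.9% lower. Krt18 had 0.721, 0.5, 0.255 and 0.482 FPKM in KD-1cell embryos, 0.404 in the KD-2cell sample and 0.298, 0.487, a listed 0 and 0.174 in controls, and these groups overlapped. Krt7 was at most 0.0682 FPKM, and Krt19 was at 0.104 FPKM in 1 KD-1cell column and listed at 0 in the other 8. The median of all rows was 0.12 higher in KD-1cell embryos, and 68.2% of the rows called were higher as deposited and 50.3% after scaling by the median of ratios. Of the 8 tested desmosome, hemidesmosome and plakin genes 1 fell, Dst, encoding the plakin dystonin (5.44 against 7.08 FPKM, -0.35, adjusted p = 0.0062). Of 6 tested other keratins 2 rose and 1 fell, with Krt84 at 14.3 ± 0.89 FPKM in KD-1cell embryos and 18.1 ± 1.7 in controls (SD, n = 4 each; -0.33, adjusted p = 0.010).

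**Figure D5:**
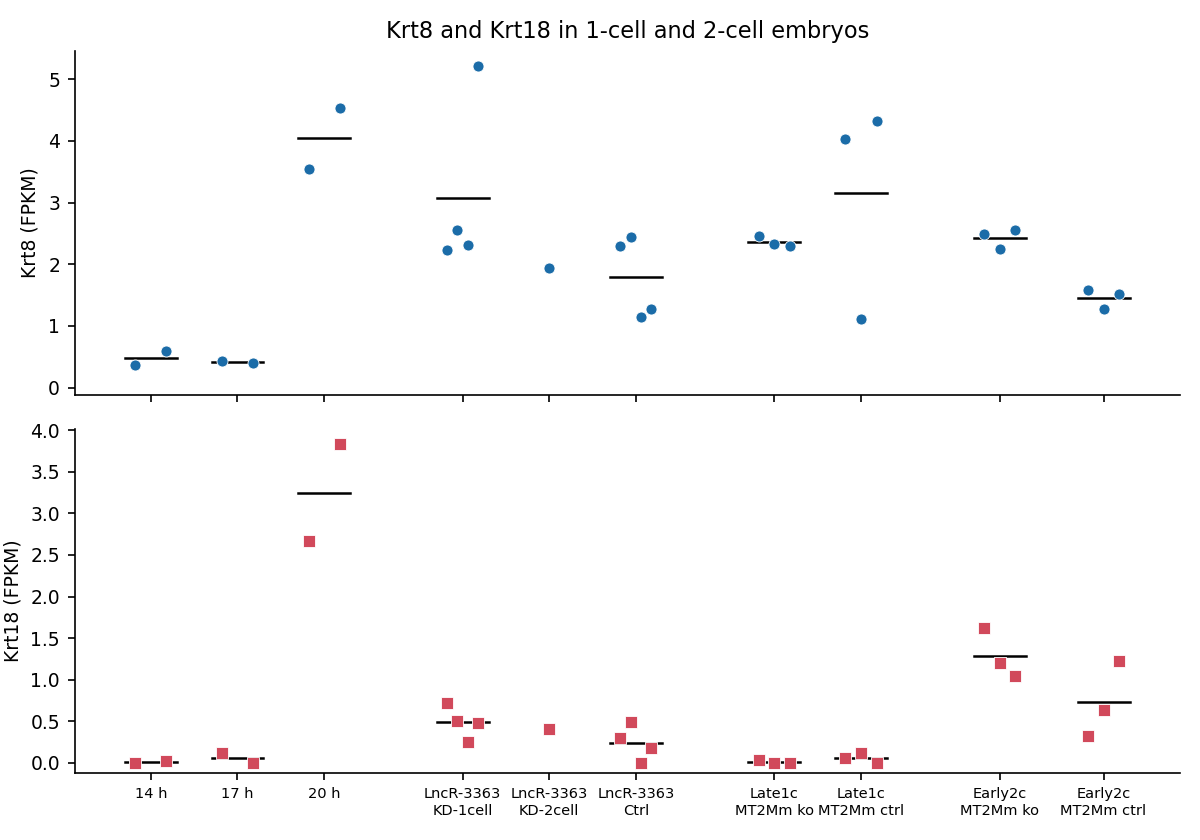
FPKM of Krt8 (upper panel) and Krt18 (lower panel) in each column of the time series, the LncR-3363 knockdown and the MT2Mm knockout; points are columns and bars are group means where a group has more than 1 column. Krt18 lies near 0 in both late 1-cell groups and at 0.326 to 1.62 FPKM in both early 2-cell groups, while Krt8 is present in all of them, and the columns at 20 hours are the highest for Krt18.

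The knockout experiment also covers the passage from late 1-cell to early 2-cell embryos, in samples apart from the other series. Krt18 had 0.326, 0.635 and 1.22 FPKM in Early2c controls, against 0.0603, 0.122 and a listed 0 in Late1c controls, and rose by 1.07 ± 0.22 (adjusted p = 0.00088). In knockout embryos Krt18 had 1.62, 1.2 and 1.04 FPKM at Early2c, against 0.0316 and 2 listed values of 0 at Late1c, and rose by 1.79 ± 0.22 (adjusted p = 1.9e-05). Krt18 passed the filter of this experiment only through these Early2c knockout columns, and without the filter the adjusted p was 0.00019. The stages did not overlap in either genotype. Krt8 had 1.58, 1.27 and 1.52 FPKM in Early2c controls, against 4.03, 1.12 and 4.33 in Late1c controls. These overlapped, and the decrease by 0.75 ± 0.31 (adjusted p = 0.044) kept no call in most alternatives, among them those without Late1c control replicate 1 (-0.52) or 3 (-0.47). In knockout embryos Krt8 differed by 0.03 (95% interval -0.65 to 0.72). In knockout embryos 1 of 2 keratins was called higher, where 70.4% of 13180 rows were called, 33.9% higher and 36.6% lower. In controls 1 of 2 was called higher and 1 lower, with 79.2% of rows called, 33.5% higher and 45.7% lower. The type II share was 66.9% in Early2c and 98.1% in Late1c controls, and 65.2% in Early2c and 99.6% in Late1c knockout embryos.

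Between genotypes, 1 of the 4 differences of Krt8 and Krt18 passed the test. At Late1c Krt8 had 2.46, 2.33 and 2.29 FPKM in knockout embryos, inside the span of the controls, and its change was -0.20 (95% interval -0.89 to 0.49, adjusted p = 0.93). That of Krt18 was -0.13 (-0.62 to 0.36, adjusted p = 0.94), so 0 of 2 were called, also at an unadjusted p of 0.05. Of all rows 15, or 0.114%, were called there, 0.0455% higher and 0.0683% lower, and 0 after either rescaling of the columns. Without Late1c control replicate 2 the change of Krt8 was -0.71 (adjusted p = 0.043). At Early2c Krt8 had 2.49, 2.25 and 2.55 FPKM in knockout embryos, above the 3 controls, but its change of 0.58 (-0.10 to 1.27) was not called (adjusted p = 0.14). A fit of these 2 groups alone called it (adjusted p = 0.0033). Krt18 overlapped between genotypes and was called higher (0.59 ± 0.22, adjusted p = 0.045). It passed the filter only through its Early2c knockout columns, and without the filter the adjusted p was 0.12. This is a call lost under most alternatives, among them the one without Early2c control replicate 1 (0.34). The count, 1 of 2 called higher, is no support for this reason; 49% of rows were called, 33.4% higher and 15.6% lower. The median of all rows was 0.11 higher in Early2c knockout embryos and -0.02 after scaling by the median of ratios, and 68.2% of the rows called were higher as deposited and 47.8% after that scaling. The change with the knockout was compared between the stages as well. For Krt18 it was greater at Early2c than at Late1c by 0.72 (0.03 to 1.42, adjusted p = 0.095) and for Krt8 by 0.78 (-0.19 to 1.76, adjusted p = 0.19). Limma thus called 0 of 2, with Krt18 under an unadjusted p of 0.05, where 37.3% of rows were called, 25.7% higher and 11.6% lower. Without Early2c control replicate 3 this difference was called for Krt18 (1.0, adjusted p = 0.0079), and without Late1c control replicate 2 it was called for Krt8 (1.3, adjusted p = 4.1e-05).

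The counts of lists at Early2c stand beside 33.4% of all rows called higher and 15.6% lower with the knockout. Of 9 tested desmosome, hemidesmosome and plakin genes 3 rose and 2 fell (median 0.20, against 0.11 over all rows), among them Plec, at 2.39 ± 0.18 FPKM in knockout embryos and 1.69 ± 0.25 in controls (SD, n = 3 each; 0.40, adjusted p = 0.014). Of 10 tested trophectoderm transcription factors 6 were higher and 1 lower with the knockout (median 0.27). Among them was Gata3, at 2.93 ± 0.26 FPKM in knockout embryos and 1.52 ± 0.34 in controls (0.77, adjusted p = 0.00015). At Late1c Gata3 averaged 3.2 FPKM in knockout embryos and 2.96 in controls. Of the 6, Klf5 was called higher at Early2c than at Late1c in controls, and Elf3, Gata3, Grhl2, Ets2 and Tfap2c were called lower. Of 6 tested other keratins Krt12 rose (0.30, adjusted p = 0.027) and Krt84 fell (-0.41, adjusted p = 0.0022). Epcam, an epithelial adhesion gene and the 1 tested oviduct marker, was at 1.74 ± 0.24 FPKM in knockout embryos and 0.633 ± 0.24 in controls (1.0, adjusted p = 0.00072), and it passed the filter only through these knockout columns. The cumulus and granulosa list summed to 10.8 to 11.5 FPKM in Early2c knockout embryos and 6.0 to 7.26 in controls. Both of its tested genes, Serpine2 and Cyp19a1, were higher with the knockout (0.92 and 0.40, adjusted p = 3.9e-07 and 0.037). Both were lower at Early2c than at Late1c in either genotype. Serpine2 averaged 17.4 FPKM in Late1c knockout embryos and 17.3 in Late1c controls, against 8.06 and 4.03 at Early2c. Cyp19a1 averaged 2.3 and 2.07 FPKM at Late1c, against 1.05 and 0.677 at Early2c. The part of these genes in the keratin values was not tested. Inha and Hsd3b1 were listed at 0 in all 6 Early2c columns.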

How the data were processed

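Total RNA libraries were sequenced as pairs of 150-base reads, per the labels' protocols, with 2 kits (TruSeq Stranded Total RNA and, for small amounts, SMARTer Stranded Total RNA-Seq version 2) that the labels do not assign to samples. The submitters' processing notes name cutadapt 1.18, HISAT2 2.1.0, Cufflinks, StringTie 1.3.4d, Cuffdiff 2.2.1 and GRCm38, without their roles. The authors deposited FPKM values, 1 table for all samples, and its 54446 Ensembl rows were matched by identifier to GENCODE M21 (54409 found); 4673 further rows are unnamed loci. No column was left out. The depth is unknown, so no counting intervals are given.

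Values were analysed with limma 3.58.1 (lmFit, then eBayes with trend; R 4.3.3) on log2(FPKM + 0.5), as no count test suits FPKM. Stage, time, knockdown and knockout columns were modelled separately, with every group of a set in the same model; KD-2cell entered no test. A row was tested where it reached 1 FPKM in at least 2 (stages, times), 4 (knockdown) or 3 (knockout) columns, and p-values were adjusted (Benjamini-Hochberg) over all of them. The models were tested on simulated data. Similar transcripts were found with blastn 2.17.0 (at least 85% identity over 500 bases). Named genes were the 4 keratins, up to 4 other keratins and up to 5 members of each list per comparison (called first, by adjusted p, then by level), the 5 rows most like a keratin and the 8 largest changes at 20 hours; exceptions are marked. The members and lists were chosen with earlier results of these data known. Krt19 had no promoter entry and is named only. Alternatives are given in the closing section.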

Additional observations from a re-analysis of the deposited data

Results flagged for a closer look

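Krt8 in 1 LncR-3363 KD-1cell column was far from the others of its group: replicate 4 had 5.22 FPKM, where the other 3 knockdown columns had 2.23 to 2.56. The gap to the nearest column was 0.89 of the range of the group, above the critical value of 0.829 for 4 samples. This was checked for 4 pairs of gene and group, and chance flags about 1 in 20 such groups. Krt18 in the same column, at 0.482 FPKM, was inside the range of its group.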

How the results depend on the processing

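Of 38 keratin changes tested, 21 were called, and 16 of these kept direction and call in every alternative, but 6 of the 16 passed the filter only through the group where they were high (Krt7 in the blastocyst, Krt8 and Krt18 at 20 hours against both earlier times, and Krt18 in Early2c against Late1c knockout embryos). The other 10 include the calls of Krt8 and Krt18 at the 4-cell, 8-cell and blastocyst steps. The cause of the losses was not tested. Krt18 in Early2c knockout against control embryos (0.59) lost its call in the 2 groups alone (0.59), with an equal protein-coding sum (0.57), median of ratios scaling (0.51), no filter (0.59), a pseudocount of 0.1 (0.88) and the replicate block (0.59, adjusted p = 0.072), and spanned 0.34 to 0.87 with a replicate left out. Krt8 in Early2c against Late1c controls (-0.75) lost it in the 2 groups alone (-0.75), with an equal protein-coding sum (-0.67), median of ratios scaling (-0.59), no filter (-0.75) and a pseudocount of 0.1 (-0.86), and spanned -1.26 to -0.47 with a replicate left out. Krt8 in L2-cell against E2-cell embryos (-0.65) lost it with no filter (-0.65), a pseudocount of 1 (-0.42) and the replicate block (-0.65, adjusted p = 0.052), and spanned -0.83 to -0.47. Krt8 in morulae against 8-cell embryos lost it with a pseudocount of 0.1 (0.91), and spanned 0.85 to 0.93; in E2-cell embryos against zygotes it spanned -1.37 to -0.44. Columns with the same replicate number did not deviate together (r from -0.138 to 0.153). This does not show whether they were collected or prepared together. The 4-cell columns carry other numbers and were left out of the block. The replicate block changed no other call. Changes without a call reversed when a replicate was left out, over these ranges: Krt18 at 17 against 14 hours (-0.03 to 0.27) and in zygotes against oocytes (-0.50 to 0.28), Krt7 in early 2-cell embryos (-0.01 to 0.06), morulae (-0.11 to 0.03) and zygotes (-0.08 to 0.11, -0.00 without Zygote replicate 2, and -0.07 in columns that share a tag), and Krt8 at 17 against 14 hours (-0.25 to 0.08) and at Late1c in the knockout (-0.71 to 0.08, and 0.03 without control replicate 1). Krt7 at the 8-cell step was called with a pseudocount of 0.1 (0.82, adjusted p = 0.042), and Krt8 in zygotes without Zygote replicate 2 (1.22). Over all rows, calls at Late1c were 15 as deposited and 0 to 44 in the alternatives, those in zygotes 740 and 1 (2 groups alone) to 5008 (without Zygote replicate 2), those at 20 against 17 hours 2521 and 905 to 1188 without any 1 of the 4 columns, those at the early 2-cell step 8685 and 4030 in the 2 groups alone, those at 17 against 14 hours 4752 and 2579 without the second column at 14 hours, those at the 8-cell step 6885 and 4410 without 8-cell replicate 2, those at the morula step 4111 and 2423 without Morula replicate 2 and those at 20 against 14 hours 5025 and 3279 without the second column at 14 hours. Rescaling moved the median of all rows by over 0.1 at the late 2-cell step (-0.10 as deposited, -0.22 by median of ratios) and the 4-cell step (0.00 and -0.27 with an equal protein-coding sum). Low keratin levels rest on values near 0 at an unknown depth.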
